A study of Mus musculus with 6 samples.

Results

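The genes that govern the step from G1 into S phase of the cell cycle were examined in whole brains of male mice at postnatal day 6, labelled as strain FVB (FVB/N in the methods of the study). They were the D-type cyclins Ccnd1, Ccnd2 and Ccnd3, the E-type cyclin Ccne1, the cyclin-dependent kinases Cdk2, Cdk4 and Cdk6, the kinase inhibitors Cdkn1b (p27) and Cdkn1c (p57), and the retinoblastoma gene Rb1. All probes annotated with one of these symbols in the deposited array table were taken, which gave 19 of the 25697 probes and 9 of the 10 genes. No probe carried the symbol Cdk4, and that gene is not analysed here. Signals were high enough to test 14 of the 19 probes, which belonged to 7 genes and were each detected on all 6 arrays.

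The series compared 3 hSRY-ON with 3 hSRY-OFF brains, 1 array for each. Both groups carried a single-copy human SRY transgene at the H11 locus of chromosome 11, in a single transgenic line. In hSRY-OFF mice the ubiquitous CAG promoter drove the red fluorescent protein DsRed2 and the SRY sequence stayed silent. In hSRY-ON mice Cre recombinase from the oocytes of Ddx4-Cre mothers had removed DsRed2 at the start of development, so that SRY and EGFP were driven by the same promoter throughout the body, and the pups chosen had not inherited Ddx4-Cre. Human SRY itself has no probe analysed here, and whether the transgene was active was not measured on these arrays. Median intensities ranged from 200 to 220 over the 6 arrays, and 13816 to 14377 probes per array were detected at a detection p-value under 0.05.

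In G1, growth signals raise the D-type cyclins, which bind Cdk4 or Cdk6 and start the phosphorylation of the retinoblastoma protein. E2F factors are thereby released and switch on Ccne1 and the replication genes, and cyclin E with Cdk2 completes the step. The p27 and p57 proteins hold cyclin-kinase complexes in check and help neural precursors to leave the cycle. At this age the mouse brain still contains dividing cells, chiefly granule cell precursors of the cerebellum, glial precursors and progenitors of the subventricular zone, and cerebellar granule cell precursors are known to use both Ccnd1 and Ccnd2.

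Cdk2, the kinase partner of cyclin E, had less signal in hSRY-ON at all 4 of its probes. Only 1 of them passed the test, and it was the only G1 regulator probe to do so. The D-type cyclins Ccnd1 and Ccnd2, Ccne1 and the other Cdk2 probes had log2 fold changes between -0.30 and -0.61 without passing it. The remaining D-type cyclin Ccnd3, the inhibitor Cdkn1c and Rb1 lay within 0.06 of 0 on that scale. The call was made with limma at an adjusted p under 0.05 over all 14215 tested probes, and a negative log2 fold change means less signal in hSRY-ON. By that rule 1 of 14 tested G1 regulator probes (7.14%) was lower and 0 were higher, beside 2.17% of all tested probes called in either direction, 1.32% called lower and 0.844% called higher. A log2 fold change below 0 was found for 11 of the 14, and for 48.9% of all tested probes. At an unadjusted p under 0.05 the count was 9 of 14, all lower, where the share over all probes was 20.9% in either direction, 10.9% lower and 10.1% higher. These 9 probes read 4 of the 7 tested genes, and probes of 1 gene on the same arrays are no independent replicates. The 3 hSRY-ON values lay wholly below the 3 hSRY-OFF values for 8 of the 14 probes, as they did for 14.2% of all tested probes, and the groups were apart in either direction for 27.7%. On the log2 scale the 14 fold changes had a median of -0.43, where the median over all tested probes was 0.0048. In brain homogenate, fewer cells of a type and less RNA per cell cannot be told apart.

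**Figure D1:**
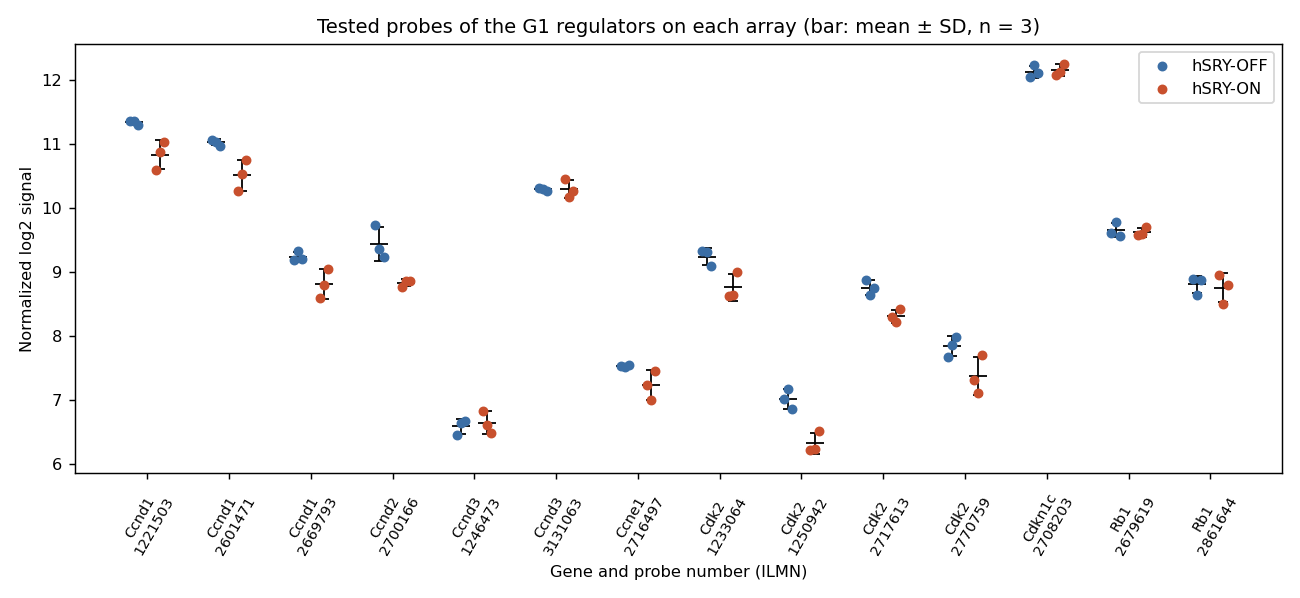
Normalized log2 signal (vertical axis) of the 14 tested G1 regulator probes (horizontal axis, gene and Illumina probe number) on each array, hSRY-OFF in blue and hSRY-ON in red, with bars for the mean ± SD of 3 arrays. The groups are apart for all 3 Ccnd1 probes, Ccnd2, Ccne1 and 3 of the 4 Cdk2 probes, and overlap for Ccnd3, Cdkn1c and Rb1; heights are not comparable between probes.

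Ccnd1 encodes cyclin D1, which couples growth factor signals to the cell cycle, and it was read by 3 probes. At its brightest probe, ILMN_1221503, the normalized log2 signals were 11.37, 11.36 and 11.30 in hSRY-OFF and 10.60, 10.88 and 11.04 in hSRY-ON, each in the order of replicates 1 to 3 as in all values that follow. Every hSRY-ON array was below every hSRY-OFF array, and the hSRY-ON arrays were spread more widely (SD 0.22 against 0.04, n = 3 each). The log2 fold change was -0.50 (SE 0.12, 95% interval -0.79 to -0.22), a signal 29.4% lower, with a limma adjusted p of 0.0801. The deposited intensities before any correction averaged 2816 in hSRY-OFF and 1952 in hSRY-ON.

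The other Ccnd1 probes gave like values. ILMN_2601471 had a log2 fold change of -0.51 (limma adjusted p 0.0861), and ILMN_2669793 one of -0.42 (limma adjusted p 0.125). The groups did not overlap at either. The 3 probes read 1 gene on the same arrays and are no independent replicates of one another. None passed the threshold, although ILMN_1221503 and ILMN_2601471 did in the fit without hSRY-ON array 3, with adjusted p values of 0.0495 and 0.0438.

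Ccnd2 encodes cyclin D2 and had a single probe, ILMN_2700166. Its normalized log2 signals were 9.75, 9.36 and 9.23 on the hSRY-OFF arrays and 8.77, 8.86 and 8.87 on the hSRY-ON arrays. Here the spread lay in hSRY-OFF (SD 0.27 against 0.05), where array 1 stood above the other two, while the hSRY-ON arrays were close together and all lower. The log2 fold change was -0.61 (SE 0.14, 95% interval -0.94 to -0.29, limma adjusted p 0.0698), a signal 34.6% lower.

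Ccnd3, the D-type cyclin best known from lymphoid and other differentiated lineages, was level between the groups. Its bright probe ILMN_3131063 read 10.32, 10.30 and 10.28 in hSRY-OFF and 10.47, 10.18 and 10.27 in hSRY-ON, with a log2 fold change of 0.0061 (95% interval -0.22 to 0.23, limma adjusted p 0.981). The dimmer probe ILMN_1246473 had one of 0.06 (95% interval -0.22 to 0.33, limma adjusted p 0.826). The groups overlapped at both probes, and both signs turned in some fits that left out an array, so Ccnd3 has no settled direction. Its remaining probe, ILMN_2661849, was detected on 1 of the 6 arrays and was not tested.

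Whether the D-type cyclins changed unequally was asked from the difference of their log2 signals within each array, using the brightest tested probe of each gene. The Ccnd1 minus Ccnd3 difference was 1.04 ± 0.02 in hSRY-OFF and 0.53 ± 0.35 in hSRY-ON (SD, n = 3 each), a shift of -0.51 (SE 0.20) that came to -0.31 without hSRY-ON array 1. The Ccnd2 minus Ccnd3 difference shifted by -0.62 (SE 0.18). In both cases the groups did not overlap, and p was 0.1 in the exact permutation test (two-sided), the smallest that 3 against 3 arrays allow, or 0.167 after adjustment over 5 pairs. The Ccnd1 minus Ccnd2 difference shifted by 0.11 (SE 0.17, exact permutation p 0.6, adjusted p 0.6), with overlapping groups and a sign that turned without hSRY-OFF array 1. These shifts compare changes and say nothing of the relative levels of the cyclins.

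**Figure D2:**
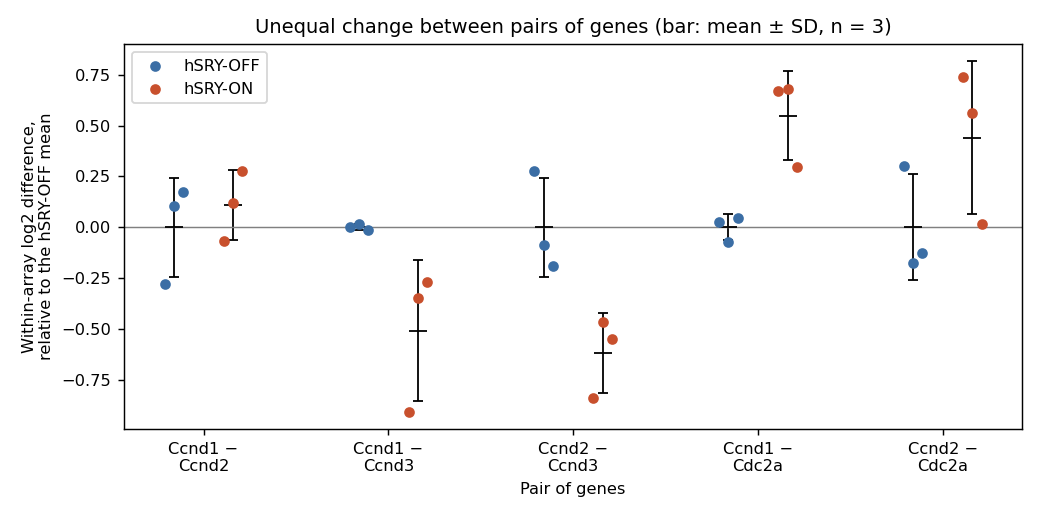
Difference of the normalized log2 signals of 2 genes within each array, relative to its mean over the hSRY-OFF arrays (vertical axis), for 5 pairs of genes (horizontal axis), hSRY-OFF in blue and hSRY-ON in red, with bars for the mean ± SD of 3 arrays. The groups are apart for Ccnd1 against Ccnd3, Ccnd2 against Ccnd3 and Ccnd1 against Cdc2a, and overlap for Ccnd1 against Ccnd2 and Ccnd2 against Cdc2a.

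Ccne1 encodes cyclin E1, the partner of Cdk2 at the entry into S phase. Its probe ILMN_2716497 read 7.53, 7.53 and 7.55 on the hSRY-OFF arrays and 7.24, 7.005 and 7.47 on the hSRY-ON arrays. The groups did not overlap, but hSRY-ON array 3 came close to the lowest hSRY-OFF array. The log2 fold change was -0.30 (SE 0.12, 95% interval -0.58 to -0.01, limma adjusted p 0.228). It was -0.18 without hSRY-ON array 2 and -0.15 without background correction.

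Cdk2 was read by 4 probes. The called probe, ILMN_1250942, had normalized log2 signals of 7.02, 7.18 and 6.87 in hSRY-OFF and 6.23, 6.23 and 6.52 in hSRY-ON. All hSRY-ON arrays were lower, by -0.69 on average (SE 0.12, 95% interval -0.98 to -0.41, limma adjusted p 0.0405), a signal 38.2% lower. It was the dimmest of the Cdk2 probes, with mean deposited intensities of 286 and 228, and the size of its change depended on the background: without background correction the log2 fold change was -0.26 (adjusted p 0.0205). The adjusted p rose to between 0.0906 and 0.124 when any one array other than hSRY-ON array 3 was left out and was 0.0320 without hSRY-ON array 3.

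The brighter Cdk2 probes lay in the same direction. ILMN_2717613 read 8.87, 8.65 and 8.76 in hSRY-OFF and 8.31, 8.22 and 8.42 in hSRY-ON, a log2 fold change of -0.45 (SE 0.10, limma adjusted p 0.0625). ILMN_1233064 had one of -0.48 (limma adjusted p 0.101) and ILMN_2770759 one of -0.47 (limma adjusted p 0.164), which was -0.25 without background correction. Only at ILMN_2770759 did the groups overlap, where hSRY-ON array 3 at 7.70 exceeded hSRY-OFF array 1 at 7.68.

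E2F factors bind TTTCCCGC, TTTCGCGC, TTTGCCGC and TTTGGCGC, and these letters were searched on both strands of the RefSeq promoter windows (GRCm38.p6, 250 bases before to 50 after the start of the gene). Windows were held for 6 of the 10 genes, and 1 of them contained a match, that of Cdk2. A match was present in 2.26% of all 32851 windows of the table. Shown are the windows of the genes with negative log2 fold changes for which one was held, Cdk2 (chr10:128705002-128705301, minus strand) and Ccne1 (chr7:38107441-38107740, minus strand), 5′ to 3′ along the gene, with the match in capitals. It is GCGGGAAA, the reverse complement of TTTCCCGC, and begins at position -140 from the start. A match is no evidence of binding, and its absence from the Ccne1 window says only that these letters do not occur there.
Cdk2: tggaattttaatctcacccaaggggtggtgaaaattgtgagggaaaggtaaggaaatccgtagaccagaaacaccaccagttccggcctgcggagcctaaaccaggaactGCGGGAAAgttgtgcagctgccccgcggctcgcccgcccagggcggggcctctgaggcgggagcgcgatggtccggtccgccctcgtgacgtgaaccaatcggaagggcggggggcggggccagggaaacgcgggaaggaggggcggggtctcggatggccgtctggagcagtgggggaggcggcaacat
Ccne1: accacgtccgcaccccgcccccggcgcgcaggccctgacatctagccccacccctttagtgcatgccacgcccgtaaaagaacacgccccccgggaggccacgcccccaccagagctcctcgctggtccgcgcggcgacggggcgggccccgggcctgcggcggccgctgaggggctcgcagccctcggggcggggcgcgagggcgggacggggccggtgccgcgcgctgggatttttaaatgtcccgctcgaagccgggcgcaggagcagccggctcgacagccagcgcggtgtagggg

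The kinase Cdk6, which with Cdk4 is driven by the D-type cyclins, was at background. Its probe ILMN_1259714 had detection p-values from 0.119 to 0.768 over the 6 arrays, so no fold change is given. Cdkn1b, the p27 gene, could not be followed either. Of its 3 probes, ILMN_1228598 and ILMN_2923960 were detected on no array, and ILMN_2638428 was detected on 1 array only, hSRY-ON array 2, at a detection p-value of 0.0226.

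Cdkn1c, the imprinted p57 gene, was bright and level. Its probe ILMN_2708203 read 12.05, 12.24 and 12.12 on the hSRY-OFF arrays and 12.08, 12.13 and 12.26 on the hSRY-ON arrays. The groups overlapped throughout, with a log2 fold change of 0.02 (SE 0.09, limma adjusted p 0.915). The 95% interval of -0.19 to 0.24 covers ratios of hSRY-ON over hSRY-OFF from 0.876 to 1.18. Its sign turned with array quality weights and in some fits that left out an array, and so is not settled.

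Rb1 encodes the retinoblastoma protein, the main substrate of the D-type cyclin kinases. Probe ILMN_2679619 read 9.62, 9.78 and 9.57 in hSRY-OFF and 9.58, 9.60 and 9.71 in hSRY-ON, with a log2 fold change of -0.03 (95% interval -0.24 to 0.18, limma adjusted p 0.880). ILMN_2861644 had one of -0.05 (95% interval -0.37 to 0.26, limma adjusted p 0.856). The groups overlapped at both probes, and each sign turned in 1 fit that left out an array. Phosphorylation of the protein, by which Rb1 is mainly controlled, is not read by an array.

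**Figure D3:**
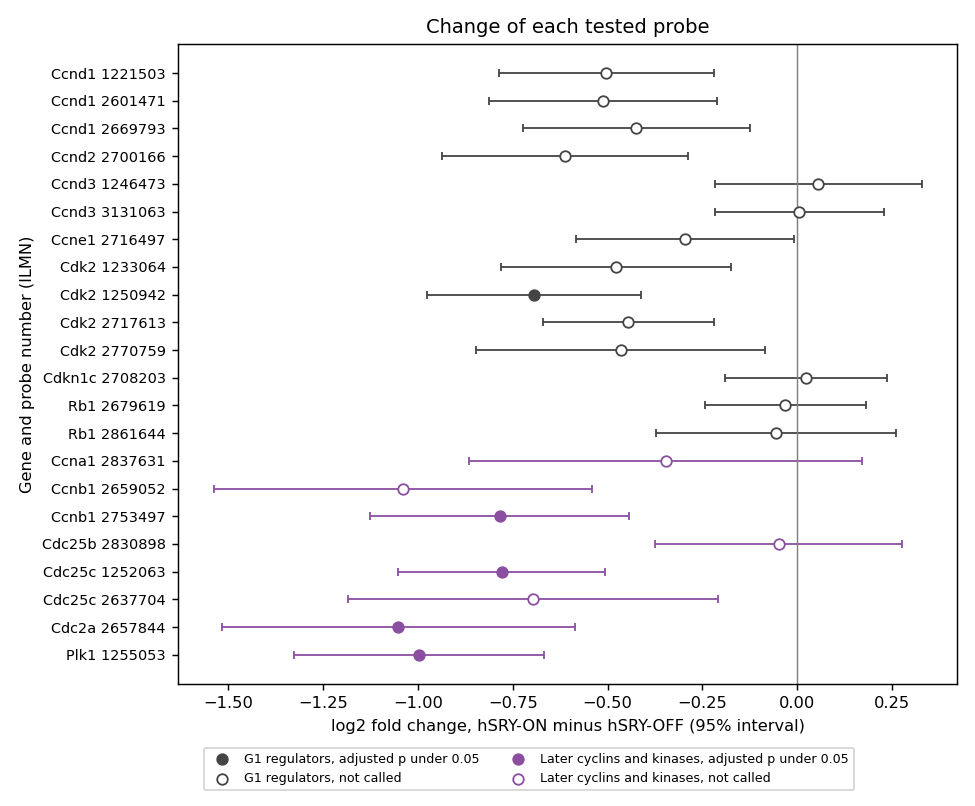
Log2 fold change, hSRY-ON minus hSRY-OFF (horizontal axis), of each tested probe (vertical axis, gene and Illumina probe number) of the G1 regulators in grey and of the later cyclins and kinases in purple, with 95% intervals from the limma fit; filled points passed an adjusted p of 0.05. Called points are 1 of 14 G1 regulator probes, that of Cdk2 at -0.69, and 4 of 8 later probes, from -0.78 to -1.05.

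hSRY-ON array 3 was the hSRY-ON array nearest to the control level for most of these probes. It held the highest of the 3 hSRY-ON values for 10 of the 11 G1 regulator probes with a negative log2 fold change, beside 40.4% of all 6958 tested probes with one. For the later cyclins and kinases this was so for 7 of 8 probes. Without that array 4 G1 regulator probes were called, 2 of Ccnd1 and 2 of Cdk2, all lower, beside 2.98% of 13986 tested probes in that fit. Without any one of the other 5 arrays limma called 0 of the 14, and 0 or 1 of all tested probes. In those 5 fits 7 or 8 of the 14 were lower at an unadjusted p under 0.05, beside 8.3% to 10.2% of all tested probes. All 6 fits kept the negative sign of the Ccnd1, Ccnd2, Ccne1 and Cdk2 probes.

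The remaining genes of the G1/S step were described from lists of 29 genes, of which 21 had a tested probe. Of 32 tested probes 2 (6.25%) were called, both lower, beside 2.17% of all tested probes called in either direction and 1.32% called lower. The median log2 fold change was -0.17, and 21 of the 32 were negative, beside 48.9% of all tested probes. The called genes were Cdkn2c, an inhibitor of Cdk4 and Cdk6, and Skp2, which marks p27 for degradation. Cdkn2c (ILMN_1228366) read 8.50, 8.52 and 8.73 in hSRY-OFF and 7.67, 7.72 and 8.10 in hSRY-ON, a log2 fold change of -0.75 (SE 0.14, limma adjusted p 0.0443). Its second probe, ILMN_1215651, had one of -0.12 (limma adjusted p 0.572). Skp2 (ILMN_2633697) read 7.20, 7.11 and 7.19 in hSRY-OFF and 6.79, 6.68 and 6.66 in hSRY-ON, a log2 fold change of -0.45 (SE 0.08, limma adjusted p 0.0413), with -0.27 (limma adjusted p 0.366) at its other tested probe. Both calls were lost when any one array other than hSRY-ON array 3 was left out, at adjusted p values from 0.0871 to 0.125, and that of Skp2 also without hSRY-ON array 3, at 0.0586. With no filter on dim probes the adjusted p was 0.0677 for Cdkn2c, 0.0732 for Skp2 and 0.0613 for the Cdk2 probe. Skp2 was also not called without background correction, where its log2 fold change was -0.19 (adjusted p 0.0622), nor with the trend and robust prior (adjusted p 0.0677).

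By role, the other inhibitors held 5 tested probes with a positive log2 fold change, 3 of them for a single gene, and 2 with a negative one, both of Cdkn2c (median 0.19). A difference in direction from the other lists was not tested. Cdkn1a, which encodes p21 and is singled out here after its values were seen, had 3 probes with log2 fold changes of 0.19, 0.30 and 0.26 (limma adjusted p 0.270, 0.155 and 0.156). At ILMN_2846775 it read 9.78, 9.94 and 10.03 in hSRY-OFF and 10.32, 10.12 and 10.21 in hSRY-ON, and the groups did not overlap at any of the 3 probes, as for 13.5% of all tested probes with hSRY-ON above. Cdkn2b, an inhibitor of Cdk4 and Cdk6 likewise singled out after its values were seen, had a log2 fold change of 0.49 (limma adjusted p 0.152) with groups apart. Its probe was dim, and its deposited intensities overlapped, at 222, 201 and 205 in hSRY-OFF and 239, 205 and 239 in hSRY-ON. In the list of other inhibitors 3 probes were higher at an unadjusted p under 0.05, beside 10.1% of all tested probes. Cdkn2a was detected on no array. Of the pocket protein and E2F probes, 11 of 13 had a negative log2 fold change (median -0.26) and limma called 0 of them, with 5 at an unadjusted p under 0.05, all lower, beside 10.9% of all tested probes. Of these 5, Tfdp2 (ILMN_2760211) was detected on 3 hSRY-OFF arrays and 1 hSRY-ON array and E2f3 (ILMN_2743503) on 3 and 2, so both entered the test through the group where they were high and lend no support to the count. The lowest p was that of E2f2 (ILMN_2673776, log2 fold change -0.67, limma adjusted p 0.0811) and the largest change in this fit that of Rbl1 (ILMN_2688306, -0.70, limma adjusted p 0.156), which encodes an Rb1 relative. The change of Rbl1 was smaller than that of E2f2 without hSRY-OFF array 2 (-0.42 against -0.71), without hSRY-ON array 2 (-0.62 against -0.69), without background correction (-0.20 against -0.25) and with an offset of 50 (-0.37 against -0.42). The other tested E2f2 probe, ILMN_2836137, was at -0.41 with overlapping groups (limma adjusted p 0.284). Among the activators and the genes of inhibitor turnover, 8 of 12 probes had a negative log2 fold change (median -0.11), and at an unadjusted p under 0.05 there were 2 lower, Ccne2 and Skp2, and 2 higher. The higher ones, Cul1 and Skp1a, encode partners of Skp2 in its ubiquitin ligase and had log2 fold changes of 0.35 and 0.38 (limma adjusted p 0.0828 and 0.223), with groups apart for Cul1 only. The largest change was that of Ccne2, the second E-type cyclin, whose probe ILMN_1245789 read 7.17, 6.97 and 6.85 in hSRY-OFF and 6.13, 5.97 and 6.54 in hSRY-ON (-0.78, SE 0.16, limma adjusted p 0.0570). Without background correction Ccne2 was -0.29 and called (limma adjusted p 0.0182), and Cdkn2c was -0.48.

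**Figure D4:**
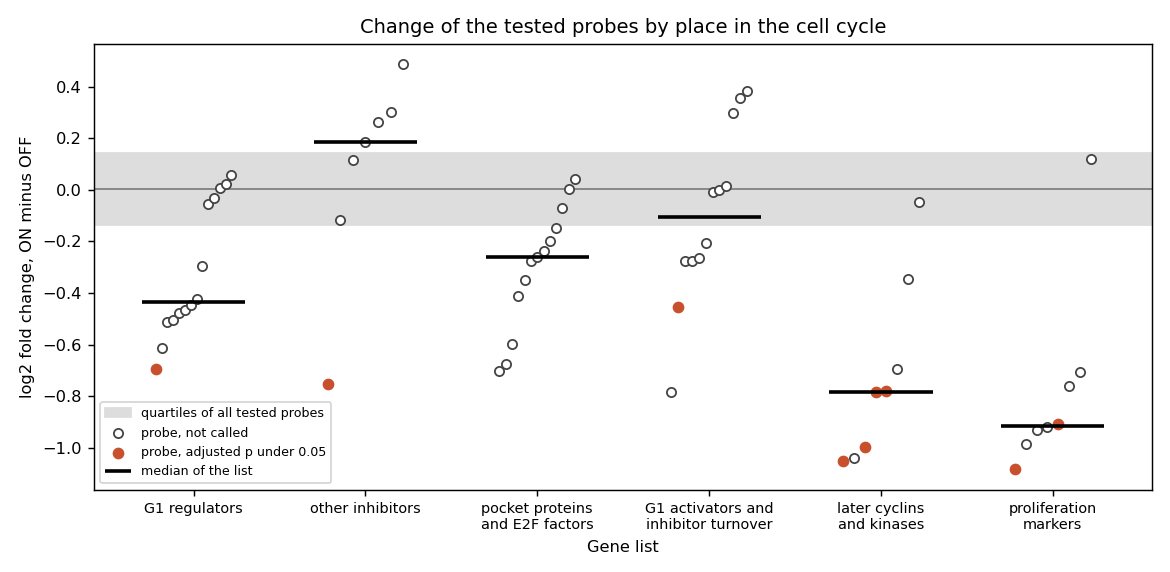
Log2 fold change, hSRY-ON minus hSRY-OFF (vertical axis), of every tested probe in 6 gene lists (horizontal axis), with the list's median as a black bar, called probes in red and the quartiles of all tested probes, -0.14 and 0.14, as a grey band. Medians are -0.43 for the G1 regulators, 0.19 for the other inhibitors, -0.26 for pocket proteins and E2F factors, -0.11 for G1 activators and inhibitor turnover, -0.78 for the later cyclins and kinases and -0.91 for the proliferation markers.

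The cyclins and kinases that act after G1 were set beside these values. All 8 tested probes lay below 0, at a median log2 fold change of -0.78, and 4 (50%) were called, beside the 2.17% of all tested probes. The called probes were those of Cdc2a (current symbol Cdk1), the kinase of mitotic entry, at -1.05 (SE 0.20, limma adjusted p 0.0484), Plk1 at -0.997 (limma adjusted p 0.0294), cyclin B1 (Ccnb1, ILMN_2753497) at -0.78 (limma adjusted p 0.0479) and the phosphatase Cdc25c (ILMN_1252063) at -0.78 (limma adjusted p 0.0327). The other tested probe of Cdc25c was at -0.70 with overlapping groups (limma adjusted p 0.124). That of Ccnb1 was at -1.04 with groups apart (limma adjusted p 0.0565). Without background correction the called probes of Plk1, Ccnb1 and Cdc25c were at -0.66, -0.45 and -0.30, all still called. These 4 calls were lost when any one array other than hSRY-ON array 3 was left out, at limma adjusted p values from 0.0725 to 0.144. Cyclin A2 was not detected, so Ccnd1 and Ccnd2 were compared with Cdc2a, the brightest tested probe of this list, a choice made after the values were seen. Within arrays, Ccnd1 minus Cdc2a shifted by 0.55 (SE 0.13, exact permutation p 0.1, adjusted p 0.167), with groups that did not overlap, and by 0.32 without background correction. Ccnd2 minus Cdc2a shifted by 0.44 (SE 0.26, exact permutation p 0.2, adjusted p 0.25), with overlapping groups, and by 0.29 without hSRY-ON array 1.

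Markers of dividing cells and of cell types that a whole brain holds were read beside the G1 regulators, and their part in the results was not tested. Of 8 tested probes for proliferation markers 7 had a negative log2 fold change and 2 were called, those of Top2a (-1.08, limma adjusted p 0.0327) and Birc5 (ILMN_2632712, -0.91, limma adjusted p 0.0360). Over all tested probes 48.9% had a negative log2 fold change and 1.32% were called lower. The other Birc5 probes were at -0.99 and -0.92 (limma adjusted p 0.0584 and 0.0717), with groups apart. The summed signals of the proliferation markers on the linear normalized scale ranged from 3986 to 4382 in hSRY-OFF and from 1920 to 2918 in hSRY-ON, 0.561 times as much on average. The sum over the 14 G1 regulator probes ranged from 14286 to 15136 and from 11841 to 13691, or 0.855 times as much. Bright probes weigh most in such a sum, here among others the level Cdkn1c probe, and Ccnd1 enters it 3 times, so this ratio is not the typical change of the probes, whose median log2 fold change was -0.43.

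Markers of oligodendrocyte precursors, which divide at this age, had a negative log2 fold change at 4 of 5 probes, with 1 called, Gpr17 (-0.73, limma adjusted p 0.0263). For this list and those that follow, the shares over all tested probes were 48.9% negative and 1.32% called lower. Pdgfra and Cspg4, the receptor and the proteoglycan that define these precursors, had log2 fold changes of 0.19, with all hSRY-ON arrays above hSRY-OFF, and -0.07 (limma adjusted p 0.254 and 0.683). Olig1 and Olig2, transcription factors of the whole lineage, had log2 fold changes of -0.27 and -0.31 with all hSRY-ON arrays below hSRY-OFF (limma adjusted p 0.160 and 0.151). At an unadjusted p under 0.05, 3 of the 5 probes were lower, beside 10.9% of all tested probes. Over all tested probes, hSRY-ON lay wholly below hSRY-OFF for 14.2% and wholly above for 13.5%. The summed signal of the precursor markers was 11741 to 12300 in hSRY-OFF and 9618 to 10028 in hSRY-ON, and the bright probes of Olig1 and Gpr17 weigh most in it. Of the granule cell precursor markers Atoh1 and Gli1 were detected on no array. The 3 tested probes of that list, of Barhl1, Mfap4 and Zic1, summed to 2179 to 2833 and 2011 to 2397, with 1 called, Mfap4 (-1.22, limma adjusted p 0.0263). Barhl1 and Zic1 had log2 fold changes of 0.09 and 0.16 with overlapping groups (limma adjusted p 0.722 and 0.662), and the median of the list was 0.09. The calls of Top2a, Birc5, Gpr17 and Mfap4 were each lost when any one array other than hSRY-ON array 3 was left out, at adjusted p values from 0.0614 to 0.119, and that of Birc5 also with no filter on dim probes (0.0554). Neural progenitor markers summed to 1861 to 1971 and 1590 to 1795, with Pax6 and Eomes not detected, 4 of 5 probes negative and 0 called by limma (1 at an unadjusted p under 0.05, Hes5 at -0.36).

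Choroid plexus markers had a positive log2 fold change at all 6 probes, with 0 called by limma and 3 at an unadjusted p under 0.05, beside 10.1% of all tested probes higher at that p. One of the 3, Kl, was detected on 0 hSRY-OFF and 3 hSRY-ON arrays, so it was tested only through the group where it was high and lends no support to the count. The summed signal of the choroid plexus markers was 15075 to 18130 in hSRY-OFF and 18476 to 23108 in hSRY-ON. Ttr, by far the brightest of them, weighs most in it (log2 fold change 0.37, limma adjusted p 0.144). In the remaining lists limma called 0 probes as well. Neuronal markers summed to 36299 to 40363 and 38533 to 40805, with 0 of 3 probes at an unadjusted p under 0.05 and Snap25 not detected, and the neuronal genes Stmn2, Syt1 and Tubb3 were detected on all arrays, as the label whole brain implies. Endothelial markers summed to 5724 to 6285 and 4896 to 5835, a sum in which the bright probe of Cldn5 (-0.42, limma adjusted p 0.126) weighs most. Of their 6 probes 4 were at an unadjusted p under 0.05, 2 higher and 2 lower, beside 20.9% of all tested probes in either direction. Kdr was not detected. The largest change among the endothelial markers was that of Ly6c1 (0.64, limma adjusted p 0.0513), which was called in 7 of 15 alternatives. Pericyte markers summed to 765 to 842 and 727 to 775 (1 of 4 probes at an unadjusted p under 0.05, Rgs5 at -0.31, limma adjusted p 0.213) and erythroid markers to 32484 to 36940 and 29080 to 36357 (0 of 3, the largest change being Alas2 at -0.27, limma adjusted p 0.516). Meningeal markers had a negative log2 fold change at 5 of 6 probes, beside 48.9% of all tested probes. At an unadjusted p under 0.05 there were 2, both lower, beside 10.9% of all tested probes lower at that p. They were those of Lum (-1.09, limma adjusted p 0.0682) and Col1a1 (-0.69, limma adjusted p 0.102). Lum was called in 6 of 15 alternatives, and its log2 fold change was -0.60 without background correction. The summed meningeal signal, 20726 to 21810 in hSRY-OFF and 18179 to 20516 in hSRY-ON, includes Igf2, whose log2 fold change was -0.10 (limma adjusted p 0.5004).

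The probes whose pattern over the 6 arrays was most like that of the called Cdk2 probe were those of Emp2, Slc25a38 and Incenp, with Pearson correlations of 0.998, 0.997 and 0.996. Emp2 and Incenp were themselves called lower, with log2 fold changes of -0.59 and -0.53 (limma adjusted p 0.0386 and 0.0484), and Slc25a38 had one of -0.16 (limma adjusted p 0.280). Among the 3 G1 regulator probes with a positive log2 fold change the lowest p was that of Ccnd3 ILMN_1246473, itself far from the threshold (limma adjusted p 0.826), and the probes most like it were those of Nt5dc1, Bcl2l1 and Rhov, at 0.990, 0.984 and 0.982. With 6 arrays and 14215 probes, correlations of this size are a description only.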

How the data were processed

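The authors deposited a table of mean bead signal intensity per probe and array, from Illumina MouseRef-8 v2.0 BeadChips, with a detection p-value for each, deposited in steps that correspond to 798 negative controls. The deposited intensities were linear and not normalized, and nothing states a background correction. For normalization and testing, TCC (an R package) is named in the methods of the study and limma in the submitters' processing notes, without settings.

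In R 4.3.3 with limma 3.58.1, the background was estimated through the detection p-values and removed from the intensities with normexp (offset 16), followed by quantile normalization and log2 transformation. Probes detected at p under 0.05 on at least 3 of 6 arrays were tested (lmFit, eBayes, group as the only term, two-sided), with Benjamini-Hochberg adjustment over all 14215. The methods give 3 mice per group, and the labels do not tie arrays to litters or chips, so p-values measure only the spread between these samples. The paper defines hSRY-OFF as carriers without recombination and does not name their mothers. It reports efficient recombination in embryos of Ddx4-Cre mothers, whether or not they inherit Ddx4-Cre. Mother and litter may therefore differ between the groups, and their part cannot be told apart from that of the transgene. Pair differences were tested by exact permutation over 10 distinct splits. Pairs needing Cdk4, Cdkn1b or Ccna2 could not be formed.

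All probes of the 10 genes were described; from other lists, called probes, the lowest p and the largest change were named. Members and lists were chosen with earlier results of these data known. The fit was tested on simulated data with known changes. Alternatives were other background corrections, normalizations, filters and priors, array weights, a replicate block and leaving out each array. Python 3.11.15 and matplotlib 3.10.9 served for the figures.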

Additional observations from a re-analysis of the deposited data

How the results depend on the processing

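The number of called G1 regulator probes, 1 of 14, depended on the processing. It was 7 without background correction, 6 with normexp on the signals and an offset of 50, and 5 with detection p under 0.01 on all arrays. It was 7 with a trend and robust prior and 0 with no filter on dim probes. In that unfiltered fit limma found 10 of 19 lower at an unadjusted p under 0.05, beside 7.37% of all probes. Leaving out 1 array gave 0 to 4 called G1 regulator probes. In the same order over all probes, 308 became 1338, 860, 705, 1447 and 123, with 480 under array quality weights and 0 to 417 without 1 array. The other G1/S probes, 2 and both lower, became 6 (2 of them higher), 5 (1 higher), 5 (1 higher), 5 (2 higher) and 0, and 0 to 2 without 1 array. The later cyclins and kinases, 4, became 2 with no filter and 0 to 4 without 1 array.

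With a replicate block, limma called 0 probes in each of these sets. In that fit 9 of 14 G1 regulator probes were lower at an unadjusted p under 0.05, beside 10.7% of all tested probes. Same-numbered arrays correlated at 0.04, 0.03 and 0.03 in their deviations from the group mean, and each array correlated best with its own number. Differently numbered arrays of the groups correlated at -0.023 to -0.0054. Values this small, from 3 arrays per group, cannot decide whether the numbers pair the samples. The block leaves each pair difference as it is.

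The signs of 5 probes near 0 turned. Ccnd3 ILMN_3131063 was -0.0085 with median scaling, -0.00036 with array weights and -0.074 to 0.067 without 1 array. Ccnd3 ILMN_1246473 was -0.041 to 0.13 without 1 array. Cdkn1c was -0.0027 with array weights and -0.029 to 0.076 without 1 array. Rb1 was -0.073 to 0.032 and -0.16 to 0.068 without 1 array, for ILMN_2679619 and ILMN_2861644 in that order. Ccnd1 minus Ccnd2 was -0.031 to 0.20 without 1 array. The cause was not tested. The log2 fold changes of the Ccnd1, Ccnd2, Ccne1 and Cdk2 probes stayed below 0 in all 15 alternatives. The counts at an unadjusted p under 0.05, and of probes below 0, were chosen as results after seeing the data. The precision is limited by 3 arrays per group, and the signals of Cdk6 and Cdkn1b by the background.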
